A study of Homo sapiens with 15 samples.

Results

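The genes CXCL1, CXCL2, CXCL3, CXCL5, CXCL6 and CXCL8 encode CXC chemokines that attract neutrophils. They were followed here by their symbols in the count tables of 2 senescent human cell lines. All 6 genes were found, among 38415 symbols present in both tables. The study asked if senescence can be established without THBD, which encodes thrombomodulin, a thrombin receptor of the cell surface. The lung fibroblast line IMR90 was labelled as senescent through HRAS G12V, an oncogenic form of the small GTPase HRAS, and it formed 3 groups of 3 libraries, labelled shTHBD set 1, shTHBD set 2 and non-targeting shRNA control. Huh7, a hepatocyte-derived carcinoma line, was made senescent with palbociclib, an inhibitor of the kinases CDK4 and CDK6, and it formed 2 groups of 3 libraries, shTHBD and non-targeting control. All 5 groups carried a short hairpin RNA and were senescent by their labels, so no proliferating cells stand beside them. The growth protocol also describes long passage of IMR90, and the labels do not tie it to these libraries. What the set numbers of the titles stand for is not given.

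These chemokines are small secreted proteins with the residues glutamate, leucine and arginine before their CXC motif. They bind the receptor CXCR2 on neutrophils, some of them also CXCR1, and guide these cells towards a source of inflammation. Many cell types switch the genes on when interleukin 1 or tumour necrosis factor activates the transcription factor NF-kB, and senescent fibroblasts release several of the proteins as part of their secretory phenotype. CXCL8 is interleukin 8, CXCL1, CXCL2 and CXCL3 are the closely related GRO chemokines, and CXCL5 and CXCL6 form a further closely related pair.

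The label of set 1 did not match the level of THBD. THBD stood at 39.5 ± 1.51 CPM (counts scaled to library size) in the libraries labelled shTHBD set 1, 10.6 ± 0.559 CPM in set 2 and 18.6 ± 1.78 CPM in the IMR90 control (SD, n = 3 each). It was thus above control in the libraries labelled set 1 and below control in set 2 (log2 fold change 1.09 ± 0.0764 and −0.81 ± 0.0905, edgeR adjusted p = 1.2e-20 and 1.5e-12). In Huh7 the THBD counts were 0, 0 and 0 in shTHBD libraries, against 0, 0 and 6 in control libraries, so a fall was not detectable at this depth. The directions given below for the libraries labelled set 1 therefore do not go with a lower THBD, and those in Huh7 cannot be set beside one. The description of replicate 3 of set 2 names Huh7 while its other labels name IMR90. The summed level of 10 hepatocyte markers in set 2 was 11.1 to 12.7 CPM with this library included, against 5045 to 5095 CPM in Huh7 shTHBD libraries. Without this library the log2 fold change of THBD in set 2 against control was −0.83. The chemokine log2 fold changes that use set 2 are also given without it. Group means, shares, neighbours, gene lists and the genes of like pattern include it. All 10 fibroblast markers reached 10 CPM in each IMR90 group and all 10 hepatocyte markers in both Huh7 groups. Libraries held 18256773 to 21509229 counts in IMR90 and 19328182 to 25236178 in Huh7.

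The 6 genes lie together on chromosome 4 (GRCh38), between 73740541 and 74099196, a stretch of 359 kb. CXCL8 comes first (73740541 to 73743716, plus strand), followed by CXCL6 (73836640 to 73849064, plus strand) and CXCL1 (73869393 to 73871308, plus strand). CXCL5 (73995642 to 73998677), CXCL3 (74036589 to 74038807) and CXCL2 (74097040 to 74099196) follow on the minus strand. The sequences just before their starts are shown because all 6 hold the same NF-kB-type word there. Each line below gives 30 bases of the RefSeq promoter window (GRCh38.p14) on the strand of the gene, with the word GGAATTTCC in capitals.
CXCL1: tggaactccgGGAATTTCCctggcccgggg
CXCL2: tggagctccgGGAATTTCCctggcccggga
CXCL3: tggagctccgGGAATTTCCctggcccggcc
CXCL5: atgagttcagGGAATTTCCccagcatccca
CXCL6: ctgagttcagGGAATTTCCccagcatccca
CXCL8: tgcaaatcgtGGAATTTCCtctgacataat

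These stretches lie at chr4:73869305-73869334 (CXCL1), chr4:74099253-74099282 (CXCL2), chr4:74038748-74038777 (CXCL3), chr4:73998748-73998777 (CXCL5), chr4:73836579-73836608 (CXCL6) and chr4:73740468-73740497 (CXCL8). Counted from the RefSeq start, the word begins at −78 in CXCL1 and CXCL3, −77 in CXCL2, −90 in CXCL5, −89 in CXCL6 and −91 in CXCL8. The bases around it fall into the same families as the proteins, with CXCL1, CXCL2 and CXCL3 alike, CXCL5 and CXCL6 alike, and CXCL8 apart. Over 250 bases before the start, identity was 81.4% between CXCL1 and CXCL3, 70.4% between CXCL1 and CXCL2, 73.3% between CXCL2 and CXCL3 and 85.3% between CXCL5 and CXCL6. Pairs across these families had 42.0% to 51.5%. The 6 promoters are thus not independent of each other.

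GGAATTTCC or its reverse GGAAATTCC was found in 6 of 6 windows of the chemokines (250 bases before to 50 after the start) and in 0.461% of 35116 RefSeq windows of that length. A looser NF-kB pattern (GGG, any 5 bases, CC), searched on both strands, was also in 6 of 6 but in 58.7% of all windows; it overlaps the shorter word in CXCL1, CXCL2, CXCL3, CXCL5 and CXCL6. In CXCL8 its only match lay elsewhere, at −117 to −108. The AP-1 pattern TGANTCA (7.71% of windows) was in CXCL8 alone, at −137 to −131, and TATAAA (11.5%) in CXCL8 alone, at −31 to −26, while the C/EBP pattern TTGCNNAA (10.5%) was in CXCL2 alone, at −188 to −181; each was searched on both strands. Such matches describe the letters in the window. The whole 110 bases before the start of CXCL1 (chr4:73869283-73869392, plus strand) show where the word stands in a promoter of the GRO family.
CXCL1 upstream: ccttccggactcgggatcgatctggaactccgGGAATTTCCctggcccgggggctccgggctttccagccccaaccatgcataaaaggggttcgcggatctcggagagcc

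The RefSeq start of CXCL1 and of CXCL5 is also the outermost start in the count tables. For the other genes the tables hold starts farther upstream, by 1 base in CXCL2, 28 in CXCL8, 38 in CXCL6 and 118 in CXCL3.

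In IMR90 cells set 2 held the lowest level of every one of the 6 chemokines. CXCL8 had 4616, 4658 and 4667 CPM in the libraries labelled set 1, 914, 944 and 901 CPM in set 2, and 8837, 8768 and 8705 CPM in the control. CXCL5, which is made by many epithelial and stromal cells, had 1710, 1704 and 1702 CPM in the libraries labelled set 1, 216, 233 and 225 CPM in set 2, and 2406, 2395 and 2375 CPM in the control. For both genes the 3 groups stood fully apart, with the libraries labelled set 1 between set 2 and the control.

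Among the GRO chemokines, CXCL1 had 611, 624 and 626 CPM in the libraries labelled set 1, 49.8, 45.2 and 44.2 CPM in set 2, and 822, 809 and 778 CPM in the control. CXCL3 had 512, 534 and 522 CPM in the libraries labelled set 1, 48.3, 47.2 and 43.1 CPM in set 2, and 676, 663 and 658 CPM in the control. CXCL2 had 191, 210 and 204 CPM in the libraries labelled set 1, 14.5, 16.5 and 16.8 CPM in set 2, and 241, 228 and 233 CPM in the control. All 3 were close to control in the libraries labelled set 1 and far below it in set 2, with no overlap between groups.

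CXCL6 had another pattern. Its level was 8.71, 8.67 and 8.37 CPM in the libraries labelled set 1, 6.64, 5.43 and 5.70 CPM in set 2, and 48.9, 46.6 and 46.3 CPM in the control. Here both groups labelled shTHBD were far below control and near each other, although they still did not overlap.

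**Figure D1:**
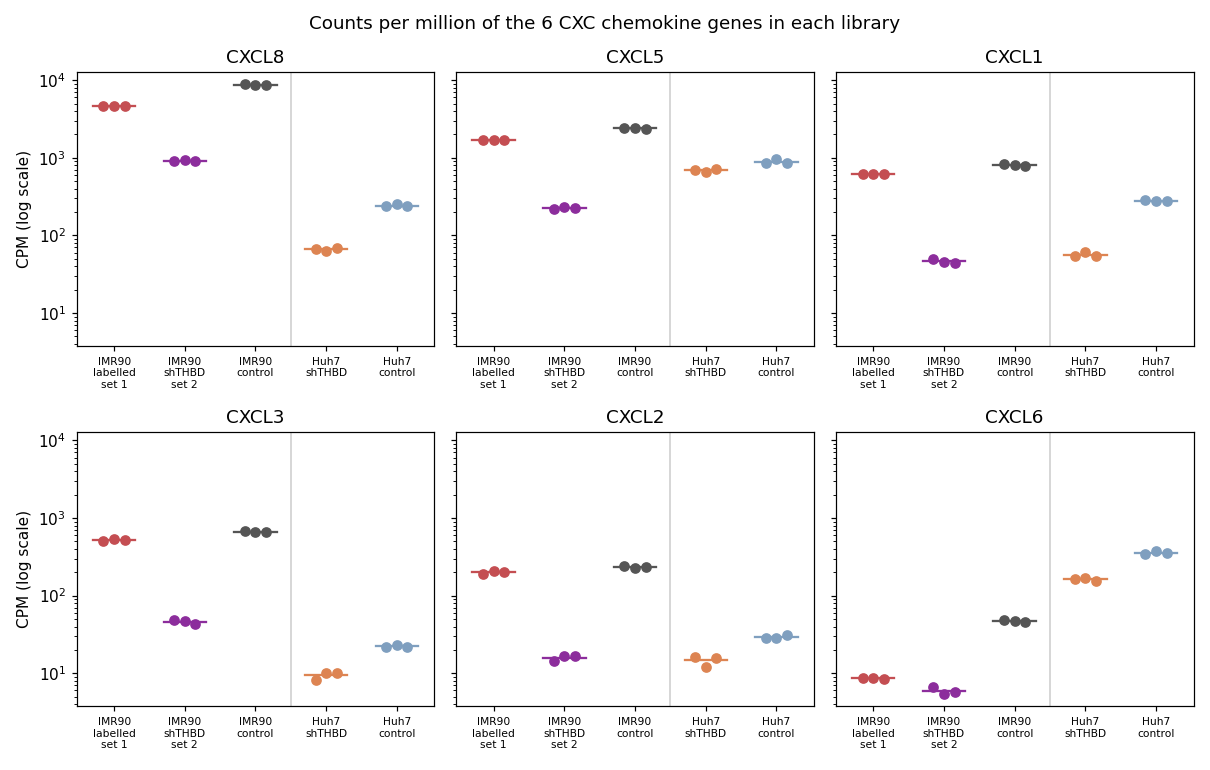
CPM of each chemokine gene (log scale) in every library of the 5 groups; each point is 1 library and each line the mean of 3. CXCL8 reached 901 to 944 CPM in set 2 and 8705 to 8837 CPM in the IMR90 control and CXCL6 reached 8.37 to 8.71 CPM in the libraries labelled set 1, 5.43 to 6.64 CPM in set 2 and 46.3 to 48.9 CPM in the IMR90 control; the lines were scaled separately.

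Set 2 was compared with the IMR90 control to ask how the chemokines differ where THBD was lower. All 6 fell, all 6 by at least 2-fold and with no overlap between groups. Of the 15411 genes tested, 34.1% were called lower, 9.79% were called lower by at least 2-fold, and 34.8% were lower without overlap. CXCL1 averaged 46.4 ± 3.02 CPM in set 2 and 803 ± 22.5 CPM in the control (SD, n = 3 each), a 17.3-fold fall. The other GRO genes fell almost as far, CXCL2 by 14.7-fold (log2 fold change −3.88 ± 0.0477) and CXCL3 by 14.4-fold (−3.85 ± 0.0322). CXCL5 fell by 10.6-fold (−3.41 ± 0.0223), CXCL8 by 9.54-fold (−3.25 ± 0.0175) and CXCL6 by 7.97-fold (−2.99 ± 0.0896). Adjusted p was 4.1e-42 or lower for each of the 6 (edgeR quasi-likelihood, Benjamini-Hochberg over all genes tested). The median of the 6 was −3.63, against 0.01 over all genes tested, and 0.11% of these genes had a log2 fold change as low as CXCL1 and 0.539% as low as CXCL6. Without replicate 3, whose description names Huh7, the log2 fold changes were −4.08 (CXCL1), −3.92 (CXCL2), −3.80 (CXCL3), −3.41 (CXCL5), −2.97 (CXCL6) and −3.24 (CXCL8). In bulk RNA, fewer cells that make a chemokine and less of its RNA per cell cannot be told apart. Fibroblast markers moved with this comparison, 6 of 10 higher and 4 lower, with a summed level of 12037 to 12157 CPM in set 2 and 6540 to 6629 CPM in the control, and mitochondrial genes took 6.38% to 6.58% of counts in set 2 and 5.43% to 5.48% in the control; their part in the result was not tested.

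In the libraries labelled set 1, where THBD was above control, the same 6 genes also fell, mostly by little. Of all genes tested there, 26.5% were called lower, 4.33% lower by at least 2-fold, and 29.6% were lower without overlap, as all 6 chemokines were. CXCL6 averaged 8.58 ± 0.187 CPM in these libraries and 47.3 ± 1.40 CPM in the control (n = 3 each), a 5.51-fold fall (log2 fold change −2.46 ± 0.085, adjusted p = 9.2e-38), and 0.221% of genes were as low. CXCL8 averaged 4647 ± 27.2 CPM and 8770 ± 66.0 CPM in the control, a 1.89-fold fall (−0.92 ± 0.016, adjusted p = 6.1e-56). CXCL5 fell by 1.40-fold (−0.49 ± 0.0194), CXCL1 by 1.29-fold (−0.37 ± 0.0246) and CXCL3 by 1.27-fold (−0.35 ± 0.025). CXCL2 fell least, by 1.16-fold (−0.21 ± 0.0337, adjusted p = 1.3e-07), and 31.8% of all genes had a log2 fold change that low or lower. The median of the 6 was −0.43. Apart from CXCL6, none reached 2-fold. Fibroblast markers summed to 4962 to 5076 CPM in the libraries labelled set 1 and 6540 to 6629 CPM in the control, with 7 of 10 lower and 2 higher. Hepatocyte markers summed to 138 to 149 CPM in the libraries labelled set 1 and 16 to 18 CPM in the control, mainly through SERPINA1, the gene of alpha-1 antitrypsin, at 141 and 16.5 CPM (3.10 ± 0.0576), and APOB, TTR and FGB were at 0 in both groups. The mitochondrial share of counts was 5.82% to 5.98% in these libraries, against 5.43% to 5.48% in control libraries. The part of these values in the result was not tested.

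The direct comparison of the libraries labelled set 1 with set 2, which needs no control, showed how unequal the groups were. All 6 genes were higher in the libraries labelled set 1, where 33.9% of genes tested were called higher and 34.4% were higher without overlap. The differences were 3.74 ± 0.0323 for CXCL1, 3.66 ± 0.0484 for CXCL2 and 3.50 ± 0.0324 for CXCL3 on the log2 scale, or 11.3-fold to 13.4-fold. They were smaller for CXCL5 (2.92 ± 0.0221) and CXCL8 (2.34 ± 0.017), with adjusted p of 9.9e-65 or lower for these 5 genes. CXCL6 differed by 0.53 ± 0.114 (adjusted p = 3.2e-05), on summed counts of 481 in those labelled set 1 and 352 in set 2. Without replicate 3 of set 2 the differences ran from 0.51 (CXCL6) to 3.71 (CXCL1), and all 6 stayed called. The comparisons of each set with the control share their control libraries, so the values of both sets against control stand side by side and are not separate evidence.

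**Figure D2:**
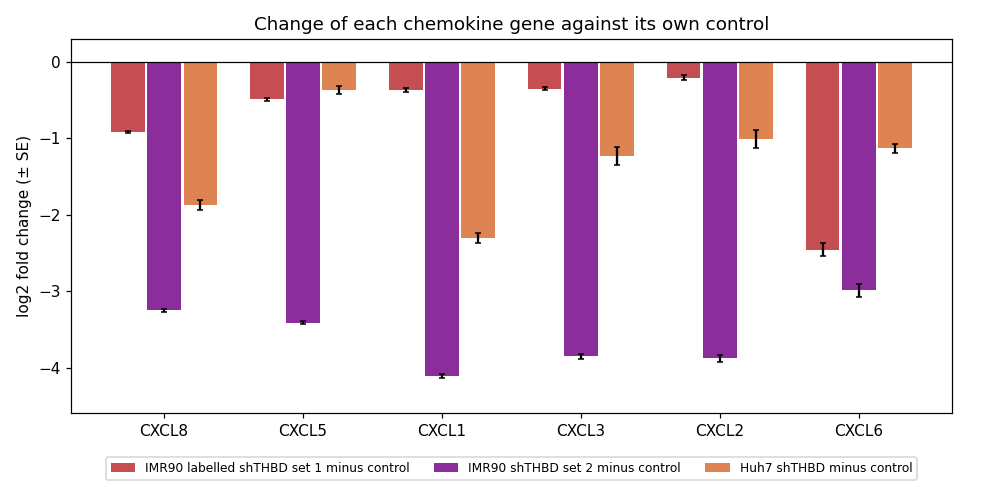
Log2 fold change (bars) with its SE (lines) of each chemokine gene against the control of its own line, for the libraries labelled shTHBD set 1, for set 2 and for Huh7 shTHBD. All 18 bars lie below 0, with the deepest at −4.11 (CXCL1, set 2) and the shallowest at −0.21 (CXCL2, libraries labelled set 1).

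Huh7 cells made all 6 chemokines, in other proportions. CXCL5 had 691, 665 and 726 CPM in shTHBD libraries, against 855, 961 and 868 CPM in control libraries. CXCL6 had 164, 168 and 156 CPM in shTHBD libraries, against 340, 375 and 354 CPM in control libraries. CXCL1 had 53.7, 61.3 and 54.7 CPM in shTHBD libraries, against 285, 278 and 275 CPM in control libraries. In all 3 genes each shTHBD library lay below each control library, by a small margin for CXCL5 and a wide one for CXCL1.

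CXCL8 had 66.2, 63.6 and 69.4 CPM in Huh7 shTHBD libraries, against 237, 250 and 240 CPM in control libraries. CXCL2 had 16.4, 11.9 and 15.7 CPM in shTHBD libraries, against 28.5, 28.4 and 31.4 CPM in control libraries. CXCL3 had 8.29, 10.2 and 10.1 CPM in shTHBD libraries, against 21.9, 22.9 and 22.0 CPM in control libraries. None of the 6 overlapped between groups, and 30.0% of all genes tested in Huh7 were lower in this way.

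Each of the 6 genes fell in Huh7 shTHBD libraries, where 27.3% of 17474 genes tested were called lower. CXCL1 fell most, by 4.94-fold (log2 fold change −2.30 ± 0.0643, adjusted p = 3.8e-24), and CXCL8 by 3.65-fold (−1.87 ± 0.062, adjusted p = 3.1e-22). CXCL3, CXCL6 and CXCL2 fell by 2.34-fold, 2.19-fold and 2.01-fold (−1.23 ± 0.122, −1.13 ± 0.0577 and −1.01 ± 0.114). CXCL5 fell least, by 1.29-fold (−0.37 ± 0.0545, adjusted p = 7.8e-07). Falls of at least 2-fold were thus found in 5 of the 6, against 8.37% of all genes. CXCL2 stood at that limit, and its log2 fold change came short of it with upper-quartile scaling (−0.96), with a filter at a mean of 5 CPM (−0.98), without replicate 2 of shTHBD (−0.87) and without replicate 3 of the control (−0.96), which leaves 4 of the 6. The median of the 6 was −1.18, against 0.00 over all genes, and 1.12% of genes were as low as CXCL1. The 10 hepatocyte markers summed to 5045 to 5095 CPM in shTHBD libraries and 7141 to 7432 CPM in control libraries, with 8 lower and 2 higher. Epithelial markers summed to 2737 to 2906 CPM in shTHBD libraries and 4645 to 4971 CPM in control libraries, where 3 of 6 were lower and none was higher, namely the keratins KRT18 and KRT8 (−1.12 ± 0.0512 and −0.77 ± 0.0508) and the cadherin CDH1 (−1.05 ± 0.0567). Fibroblast markers summed to 1670 to 1714 CPM in shTHBD libraries and 1060 to 1132 CPM in control libraries, with 5 of 8 tested higher and none lower. Mitochondrial genes took 8.04%, 7.83% and 9.94% of counts in shTHBD libraries, against 8.35%, 7.79% and 7.26% in control libraries. The part of these markers and of this share in the result was not tested. Replicate 3 of shTHBD, with the highest share, also differed most from its own group (chi-square per degree of freedom 9.91 and 12.4, against 4.32 between the other two). Without it the log2 fold changes were −2.29 (CXCL1), −1.07 (CXCL2), −1.28 (CXCL3), −0.41 (CXCL5), −1.12 (CXCL6) and −1.91 (CXCL8), and all 6 stayed called. Replicates varied more in Huh7 than in IMR90 (common biological coefficient of variation 8.20% and 3.13%), and the SD of CXCL2 in shTHBD libraries was 16.5% of its mean.

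**Figure D3:**
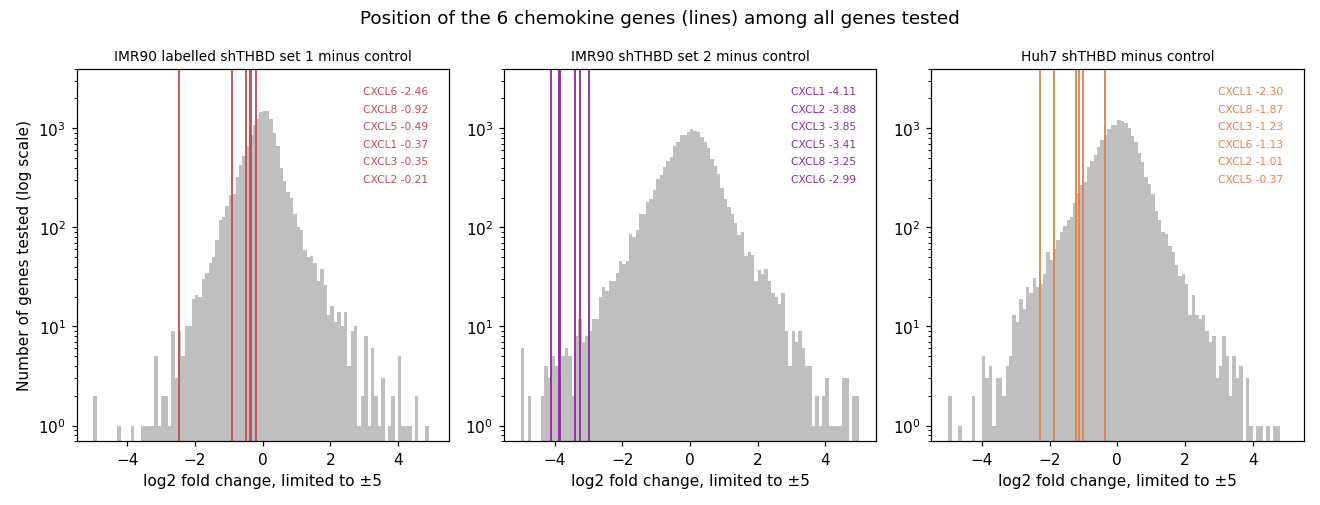
Distribution of log2 fold changes over all genes tested (grey bars, log scale of gene number) with the 6 chemokine genes as lines and their values listed, in 3 comparisons. The lines lie at the low edge in set 2 (−4.11 to −2.99) and spread from −2.30 to −0.37 in Huh7. In the libraries labelled set 1 they lie from −0.49 to −0.21, except for CXCL8 (−0.92) and CXCL6 (−2.46). Of all genes tested there, 16.6% were as low as CXCL5 and 31.8% as low as CXCL2.

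The response was tested between lines in a joint fit of 16682 genes, as the Huh7 effect minus the IMR90 effect, each against its own control. The lines also differ in tissue, in the inducer of senescence and in their count table. The titles name the hairpins differently in each line and do not show if one is shared. These differences cannot be told apart from each other. Against set 2, the effect in Huh7 was weaker for all 6 genes, where 22.8% of all genes tested were called in that direction. The difference was 3.07 ± 0.0563 for CXCL5, 2.90 ± 0.112 for CXCL2 and 2.65 ± 0.0905 for CXCL3. It was 1.89 ± 0.0954 for CXCL6, 1.84 ± 0.0668 for CXCL1 and 1.41 ± 0.048 for CXCL8, with adjusted p of 3.5e-19 or lower for all 6. Without replicate 3 of set 2, the differences ran from 1.40 (CXCL8) to 3.07 (CXCL5), and without replicate 3 of Huh7 shTHBD from 1.38 (CXCL8) to 3.04 (CXCL5).

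Against the libraries labelled set 1, the Huh7 effect was deeper for 4 genes, where 23.9% of genes tested were called in that direction. CXCL1 differed by −1.91 ± 0.0625, CXCL8 by −0.93 ± 0.0477, CXCL3 by −0.86 ± 0.0838 and CXCL2 by −0.78 ± 0.10, with adjusted p of 2.2e-08 or lower. In the opposite direction, in which 23.6% of genes tested were called, CXCL6 differed most (1.35 ± 0.0908, adjusted p = 1.2e-15), since its fall was 2.19-fold in Huh7 shTHBD libraries and 5.51-fold in the libraries labelled set 1. CXCL5 differed by 0.14 ± 0.0543 (adjusted p = 0.0316), and this call was lost under several alternatives, with adjusted p up to 0.152 without replicate 1 of the Huh7 control. Without replicate 3 of Huh7 shTHBD it was lost too (0.11, adjusted p = 0.0592), while the other 5 stayed called at −1.89 (CXCL1), −0.83 (CXCL2), −0.90 (CXCL3), 1.38 (CXCL6) and −0.96 (CXCL8). The order of the falls therefore differed by group, with CXCL1 the deepest in set 2 and in Huh7 and CXCL6 the deepest in the libraries labelled set 1.

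Levels of different genes were compared as TPM, which scales counts by gene length and then by the library. In all 3 IMR90 groups the order was CXCL8, CXCL5, CXCL1, CXCL3, CXCL2 and CXCL6, and no neighbours in that order overlapped between their replicates. CXCL8 averaged 6873 ± 20.7 TPM in the libraries labelled set 1, 1488 ± 36.4 TPM in set 2 and 13881 ± 70.1 TPM in the control. It made up 57.4% ± 0.137 of the summed TPM of the 6 genes in the libraries labelled set 1, 71.8% ± 0.123 in set 2 and 65.5% ± 0.157 in the control (SD, n = 3 each). CXCL1 took 12.6%, 5.96% and 9.86% in these groups. The share of CXCL8 was thus highest where its level was lowest, while the GRO genes held a smaller share in set 2. CXCL6 took 0.116% in the libraries labelled set 1, 0.508% in set 2 and 0.388% in the control.

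In Huh7 the order was CXCL5, CXCL6, CXCL1, CXCL8, CXCL2 and CXCL3 in shTHBD libraries and CXCL5, CXCL1, CXCL6, CXCL8, CXCL2 and CXCL3 in control libraries, again without overlap of neighbours. CXCL5 took 63.2% ± 1.39 of the summed TPM in shTHBD libraries and 41.4% ± 1.08 in control libraries. CXCL1 took 9.23% ± 0.835 in shTHBD libraries and 23.2% ± 1.09 in control libraries, and CXCL8 6.58% ± 0.142 and 12.2% ± 0.119. CXCL6, CXCL2 and CXCL3 took 17.7%, 2.33% and 0.952% in shTHBD libraries and 19.7%, 2.38% and 1.13% in control libraries. The mix in Huh7 shTHBD libraries was therefore mainly CXCL5 and CXCL6, and that of IMR90 mainly CXCL8 and CXCL5.

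Taken as 1 sum, the 6 genes reached 11971 ± 47.9 TPM in the libraries labelled set 1, 2073 ± 47.3 TPM in set 2 and 21189 ± 157 TPM in the IMR90 control. In Huh7 they reached 1587 ± 33.2 TPM in shTHBD libraries and 3047 ± 153 TPM in control libraries. Their share of all counts was 0.736%, 0.132% and 1.28% in the IMR90 groups in that order, and 0.101% and 0.18% in Huh7 shTHBD and control libraries.

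**Figure D4:**
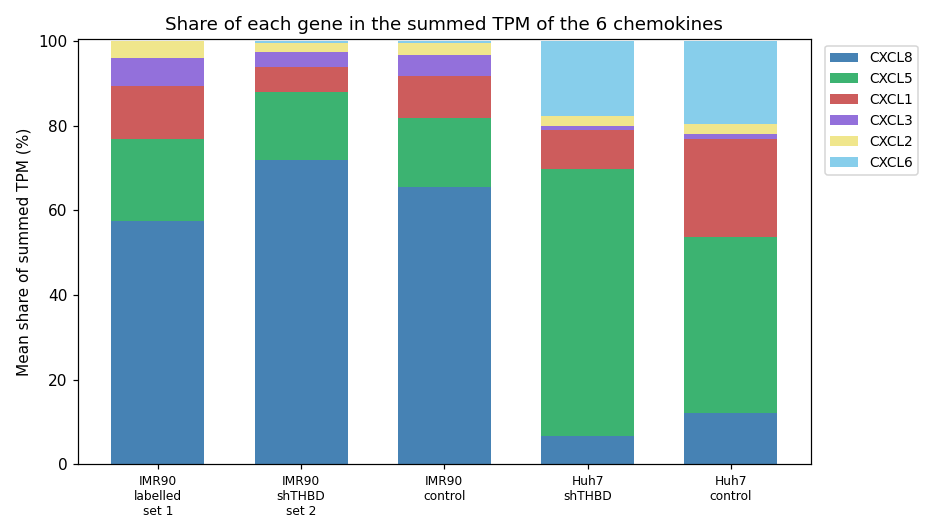
Mean share of each gene in the summed TPM of the 6 chemokines in the 5 groups, as stacked bars that add up to 100%. CXCL8 fills 57.4% to 71.8% of the IMR90 bars, and CXCL5 fills 63.2% of the Huh7 shTHBD bar and 41.4% of the Huh7 control bar.

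Some counts are uncertain because genes share sequence. Of all words of 50 bases in their transcripts, 5.73% in CXCL1, 9.24% in CXCL2 and 5.26% in CXCL3 occurred in another gene of that trio, while at 100 bases none did. CXCL6 and CXCL8 shared no word of 50 bases, and CXCL5 shared 1.12% with GLYR1. Exons of CXCL5 overlap the gene RP11-19B4.2 on the opposite strand over 422 of 2436 bases, and exons of CXCL6 overlap PPBPP1 on the same strand over 94 of 2040 bases. Counting had no strand option by the header of the IMR90 table, so the overlap of CXCL5 cannot be resolved there. The overlap of CXCL6 lies on the same strand, where a strand option would not separate the genes. For the Huh7 table this option is not given.

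Within 500000 bases of the cluster the tables list 30 other genes, of which 7 passed the filter on low counts in IMR90 and 9 in Huh7. In set 2, 5 of the 7 were lower than control and 1 was higher, while 34.1% of all genes tested were called lower and 33.2% higher. The deepest was PPBP, another chemokine of the cluster that acts on CXCR2, with 0.471 ± 0.111 CPM in set 2 and 3.87 ± 0.71 CPM in the control (log2 fold change −3.02 ± 0.277, adjusted p = 7.8e-16). The growth factor genes AREG and EREG, ligands of the epidermal growth factor receptor, were lower (log2 fold change −2.03 ± 0.0309 and −0.63 ± 0.0291). ANKRD17 and MTHFD2L changed little (−0.31 ± 0.0374 and −0.22 ± 0.102), and EPGN did not pass the test (0.22 ± 0.433, adjusted p = 0.668). AFP, the fetal albumin-like protein, was higher by 3.39 ± 0.366 from a low level (3.28 ± 0.493 CPM in set 2 and 0.312 ± 0.155 CPM in the control).

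In the libraries labelled set 1, 3 of these 7 neighbours were higher and 1 lower. EREG and AREG were higher by 0.24 ± 0.0279 and 0.08 ± 0.027, AFP by 1.49 ± 0.445, and ANKRD17 was lower (−0.09 ± 0.0371, adjusted p = 0.0429). PPBP did not pass the test, with 4.87 ± 0.405 CPM in these libraries and 3.87 ± 0.71 CPM in the control (adjusted p = 0.131), nor did MTHFD2L (adjusted p = 0.102) or EPGN (adjusted p = 0.457). Of the 4 called neighbours, ANKRD17 alone was lower, while 26.5% of all genes tested were called lower and 27.3% higher. All 6 chemokines followed here fell, but PPBP, also a chemokine of the cluster, was not lower.

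Of the 9 neighbours tested in Huh7, 4 were lower and 2 higher, while 27.3% of all genes tested were called lower and 25.9% higher. The liver protein genes AFM, ALB and AFP had log2 fold changes of −1.93 ± 0.175, −1.31 ± 0.101 and −0.48 ± 0.0519, and RASSF6 −0.49 ± 0.159. AREG was higher by 1.47 ± 0.125 and ANKRD17 by 0.22 ± 0.0728. PF4, MTHFD2L and LINC02499 did not pass the test (adjusted p = 0.124, 0.382 and 0.063). AREG thus had opposite directions in Huh7 shTHBD libraries and in set 2, and a test of that difference is not given here.

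**Figure D5:**
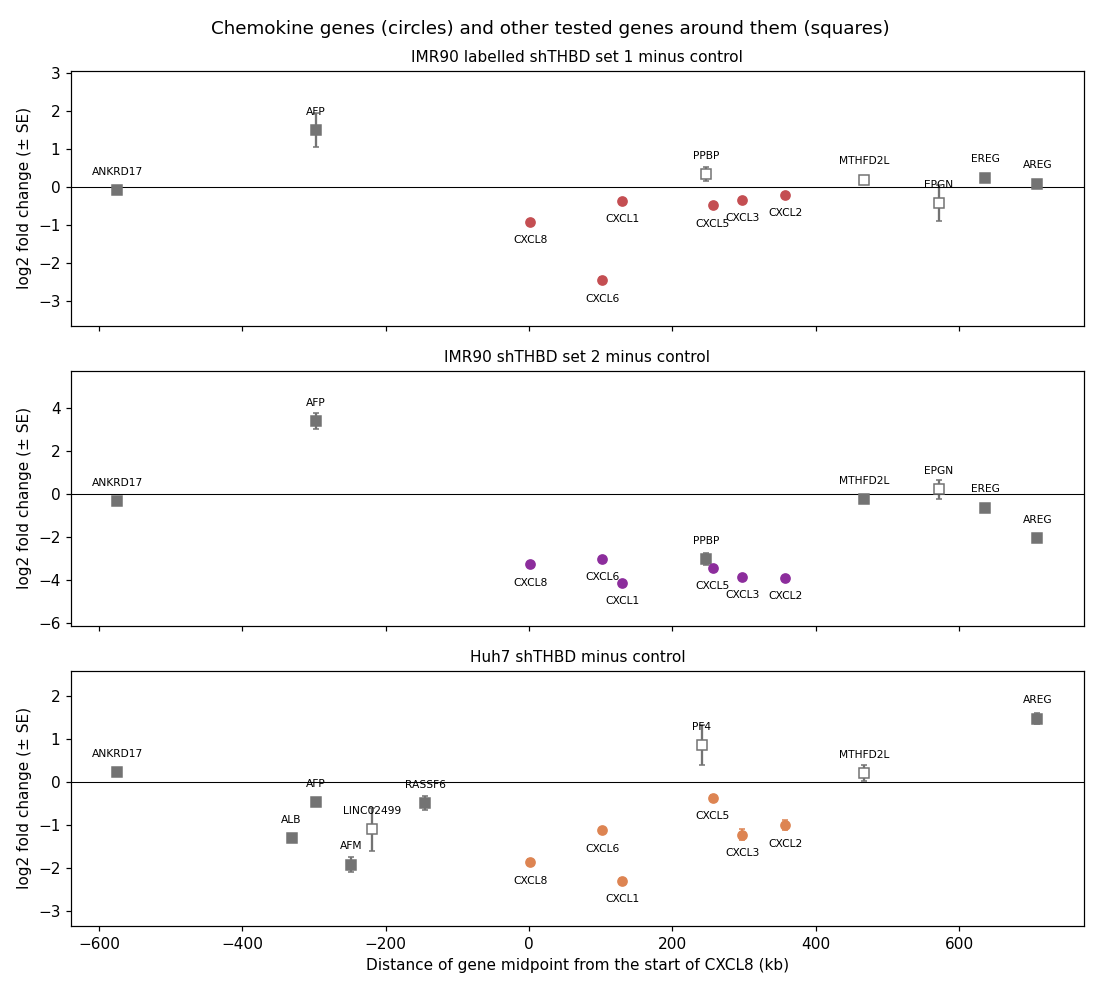
Log2 fold change with its SE of the 6 chemokine genes (circles) and of the other tested genes around them (squares), by distance in kb of the gene's midpoint from the start of CXCL8; open symbols did not pass the test. In set 2 PPBP lies with the chemokines at −3.02 and AREG at −2.03, while AREG is higher in Huh7 shTHBD (1.47).

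Genes that act before and after the chemokines were read from lists, given as counts of called genes. Over all genes tested, 27.3% were called higher in the libraries labelled set 1, 33.2% in set 2 and 25.9% in Huh7 shTHBD libraries, each against its control. In the same order, 26.5%, 34.1% and 27.3% were called lower. The receptors CXCR1 and CXCR2 and the scavenging receptor ACKR1 were at or near 0 in IMR90, with 1 count of CXCR2 over 9 libraries. CXCR1 had 0 counts in all 15 libraries. In Huh7, CXCR2 had 35 to 46 counts in shTHBD libraries and 7 to 8 in control libraries (1.62 ± 0.239 and 0.395 ± 0.0371 CPM) and was called higher, with a log2 fold change of 2.02.

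Among inducers of the chemokines and their signalling proteins, 11 of 16 were tested in IMR90. In set 2, 7 were lower and 3 higher, with a median of −0.35. IL1A, which encodes interleukin 1 alpha, had 72.6 CPM in set 2 and 465 CPM in the control (−2.68 ± 0.0326), and IL1B 872 and 4942 CPM (−2.50 ± 0.0166). MYD88, the adaptor of interleukin 1 receptors, fell by 1.98 ± 0.0698 on the log2 scale. None was lower and 8 were higher in the libraries labelled set 1, with IL1B at 7618 CPM and 4942 CPM in the control (0.62 ± 0.0155) and MYD88 at 0.38 ± 0.0558. The chemokines and IL1B therefore moved together in set 2, while in those labelled set 1 they went in opposite directions. In Huh7, 8 of 11 tested were lower and 2 higher, among them IL1RAP, the accessory chain of the interleukin 1 receptor (−1.91 ± 0.0759), and MYD88 (−1.55 ± 0.075); IL1A and IL1B were under 1 CPM in both Huh7 groups.

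Of 14 genes of NF-kB subunits, kinases and inhibitors, all tested, 11 were lower and 1 higher in set 2, with a median of −0.42. REL and NFKB1, subunit genes, had −1.12 ± 0.18 and −0.99 ± 0.0546. The libraries labelled set 1 had 6 higher and 4 lower, with the inhibitor gene NFKBIE at 1.00 ± 0.0633. In Huh7, 6 were lower and 1 higher, with NFKBIE at −0.88 ± 0.132 and NFKB1 at −0.76 ± 0.0819. Of AP-1 and C/EBP genes, 5 of 11 tested were lower and 3 higher in set 2, with FOSB at −1.59 ± 0.153 and CEBPG at −1.40 ± 0.0697. In those labelled set 1, 5 were higher and 3 lower. In Huh7, 6 of 12 were lower and 4 higher, with CEBPA at −1.41 ± 0.0767 and ATF3 at 1.36 ± 0.0931.

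Several mRNAs of this family carry AU-rich elements, and 13 regulators of such mRNAs were tested. In set 2, 7 were higher and 6 lower. ZFP36L1, which promotes decay of AU-rich mRNAs, was higher by 0.89 ± 0.0263, and the ribonuclease gene ZC3H12A was lower (−0.97 ± 0.0358). Those labelled set 1 had 7 higher and 3 lower, with ZFP36, which also promotes such decay, at 1.28 ± 0.101. Huh7 had 3 higher and 6 lower, with ZFP36 at −0.77 ± 0.0835 and KHSRP, a decay factor, at −0.49 ± 0.0576.

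Other factors that act on neutrophils fell with the chemokines in set 2, where 6 of 7 tested were lower and none was higher. CSF3, the gene of granulocyte colony-stimulating factor, had 20.3 CPM in set 2 and 329 CPM in the control (−4.01 ± 0.0389). In the libraries labelled set 1, 4 were lower and 3 higher, and CSF3 was among the higher, at 486 CPM (0.56 ± 0.0268). In Huh7, 3 were lower and 1 higher, the complement gene C3 (−0.78 ± 0.0492) among the lower and LCN2, a protein of neutrophil granules (1.09 ± 0.232), the higher one.

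Enzymes that cut chemokines and proteoglycans that bind them were tested in 10 of 13 cases in IMR90. In set 2, 9 were lower and 1 higher, among them MMP3 (−2.53 ± 0.0233) and MMP9 (−2.42 ± 0.128). Those labelled set 1 had 6 higher and 4 lower, with MMP9 at 159 CPM and 11 CPM in the control. In Huh7, 4 of 6 were lower and 2 higher, with DPP4, a peptidase, at −0.56 ± 0.054 and SDC1, a proteoglycan, at −0.43 ± 0.0771.

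Among other CXC chemokines, a list that also holds the neighbour PPBP, 3 of 5 tested were lower and none higher in set 2. In the libraries labelled set 1, 1 was lower and 1, CXCL16, higher (1.57 ± 0.251). The level of CXCL16 was low, with 3.76 ± 0.606 CPM in these libraries and 1.27 ± 0.308 CPM in the control. In Huh7, 3 of 5 were lower and 1 higher, with CXCL10, which attracts T cells, at 0.859 CPM in shTHBD libraries and 7.38 CPM in control libraries (−3.07 ± 0.329). Of CC and CX3C chemokines, 5 of 6 were lower and 1 higher in set 2, 2 lower and 2 higher in the libraries labelled set 1, and 3 of 4 lower and 1 higher in Huh7. CCL20, which attracts cells that carry CCR6, had 7.78 CPM in set 2 and 128 CPM in the IMR90 control (−4.04 ± 0.0616), and 19.2 CPM in Huh7 shTHBD libraries and 275 CPM in control libraries (−3.84 ± 0.0728). In the libraries labelled set 1 it stood at 127 CPM and was not called (−0.01 ± 0.0405, adjusted p = 0.812).

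The genes nearest to the mean profile of the 6 chemokines over the 9 IMR90 libraries were found by the root mean square difference of centred log2 CPM. IL6, a cytokine of the senescent secretory phenotype, was nearest of 8733 genes, with a difference of 0.0529, followed by CSF2, the gene of a myeloid growth factor (0.124), ITPKA (0.180), FOXQ1 (0.209), PTGS2, the prostaglandin synthase (0.248), and GABRA2 (0.249). The median over these genes was 1.52. The chemokines themselves differed from their own mean by 0.131 (CXCL5), 0.188 (CXCL8), 0.297 (CXCL3), 0.371 (CXCL2), 0.394 (CXCL1) and 0.953 (CXCL6). IL6 lay nearer to the mean profile than any single chemokine, and CXCL1, CXCL2, CXCL3 and CXCL6 lay farther than all 6 of the genes named. Nearness to this mean is therefore not nearness to each chemokine. In the libraries labelled set 1, IL6 had a log2 fold change of −0.76 ± 0.0283, against a median of −0.43 for the 6. In Huh7, IL6, PTGS2 and GABRA2 did not pass the test (−0.27 ± 0.281, 1.02 ± 0.456 and 0.21 ± 0.0945), whereas ITPKA and FOXQ1 were lower (−3.18 ± 0.281 and −2.24 ± 0.18).

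Leukocyte markers were low in IMR90 and higher in Huh7. Their sum over 10 genes was 12.5 to 14.2 CPM in the libraries labelled set 1, 1.35 to 1.92 CPM in set 2 and 4.17 to 4.96 CPM in the IMR90 control, and 34.7 to 38.4 CPM in Huh7 shTHBD libraries and 44.8 to 48.9 CPM in control libraries. Of 2 tested in IMR90, 2 were higher in the libraries labelled set 1 and 2 were lower in set 2, each against control. LAPTM5, 1 of these markers, had 8.78 CPM in the libraries labelled set 1, 0.321 CPM in set 2 and 1.35 CPM in the control. FCGR3B and ELANE, which mark neutrophils, were at 0 in all 5 groups. In each Huh7 group the other 8 of the 10 markers were detected. LYZ was the highest there, with 21.1 CPM in shTHBD libraries and 24.8 CPM in control libraries. CSF3R had 6.29 ± 1.54 and 11.5 ± 2.2 CPM in the same order. It was called lower (−0.87 ± 0.175), with 1 lower and 0 higher of 5 tested in Huh7. The 6 epithelial markers summed to 102 to 110 CPM in the libraries labelled set 1, 82.6 to 85.6 CPM in set 2 and 84.9 to 93.8 CPM in the IMR90 control, and the 6 endothelial markers to at most 8.76 CPM there. In Huh7 the endothelial markers summed to 9.18 to 11.2 CPM in shTHBD libraries and 14.7 to 15.8 CPM in control libraries, with 1 higher and 2 lower of 3 tested. Their part in the chemokine results was not tested.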

How the data were processed

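The values are whole-number counts per gene, unchanged from what the authors deposited. The submitters' processing notes name fastp, STAR, featureCounts and the build GRCh38. For IMR90, per the file headers, featureCounts 2.0.1 counted paired fragments on exons of GENCODE 38, with no strand option; for the Huh7 table, version and annotation are not given in the sources used.

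Quasi-likelihood tests of edgeR 4.0.16 (R 4.3.3) were run per line, on genes kept by filterByExpr with TMM scaling. A gene was called when its p, adjusted by Benjamini and Hochberg over all genes tested, was under 0.05. All 9 IMR90 libraries entered the same model, and a joint fit of all 15 libraries compared the lines. CPM used TMM-scaled library sizes, and TPM the lengths in the tables. The SE is approximate (size of the log2 fold change divided by the root of F). Genes named from lists were the 2 called with the largest change in set 2 and the 2 in Huh7, with at least 5 CPM in a group; neighbours were all those tested, and likeness used genes of at least 10 CPM in the IMR90 control (prior count 2). RefSeq promoter windows were matched by symbol for all 6 genes. Proteins planned in the design were not used here. Shared words of transcripts came from GENCODE 29.

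The 6 genes and the lists were chosen with earlier results of these data known. The tests were tried on simulated counts. Alternatives were the scaling and test of DESeq2 1.42.0, upper-quartile scaling, voom of limma 3.58.1, other filters, a block on the replicate number, and each library left out in turn. Separate cultures are not stated for replicates, so p-values measure the spread between these samples alone, which may be technical. Replicates differed by more than counting error (chi-square per degree of freedom 1.93 to 2.68 in IMR90 and 3.6 to 12.4 in Huh7).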

Additional observations from a re-analysis of the deposited data

Results flagged for a closer look

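The response of the 6 chemokine genes in Huh7 was called different from that in each IMR90 set (edgeR, joint fit of 15 libraries, Huh7 effect minus IMR90 effect on the log2 scale). For CXCL5 against the libraries labelled set 1 the call did not hold under every alternative. For CXCL1, CXCL2, CXCL3 and CXCL8 the sign depended on the set, negative against the libraries labelled set 1 and positive against set 2. A difference between lines cannot be told apart here from one in hairpin, THBD level, tissue, inducer of senescence or count table. Against the libraries labelled shTHBD set 1 (THBD higher than control) the differences were −1.91 for CXCL1, −0.78 for CXCL2, −0.86 for CXCL3 and −0.93 for CXCL8, with adjusted p of 2.0e-25, 2.2e-08, 3.1e-11 and 2.9e-19. The difference was 1.35 for CXCL6 (adjusted p = 1.2e-15). It was 0.14 for CXCL5 (adjusted p = 0.0316), a call lost by the DESeq2 test (adjusted p = 0.0514), with the replicate block (adjusted p = 0.0522) and in 9 of the fits that leave out 1 library (adjusted p up to 0.152). Against set 2 they were 1.84 for CXCL1, 2.90 for CXCL2, 2.65 for CXCL3, 3.07 for CXCL5, 1.89 for CXCL6 and 1.41 for CXCL8, with adjusted p from 3.3e-33 to 3.5e-19. Of all 16682 genes tested, 23.9% were called lower and 23.6% higher in the first of these tests, and 22.8% higher in the second. Both tests share the Huh7 libraries and the IMR90 control.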

How the results depend on the processing

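The directions of the 6 chemokine genes were kept in all 642 values from alternatives over the 6 comparisons, and 631 stayed on the same side of the threshold. The other 11 all concern CXCL5 in the Huh7 effect minus the effect in the libraries labelled set 1. This difference was 0.13 (adjusted p = 0.0514) by the DESeq2 test and 0.14 (adjusted p = 0.0522) with the replicate block, and from 0.10 to 0.20 with each library left out. It lost the call without any 1 of the 3 replicates labelled set 1, the 3 of the IMR90 control, replicate 3 of Huh7 shTHBD, or replicates 1 and 3 of the Huh7 control; the cause was not tested. The number of chemokines with a weaker fall in Huh7 than in the libraries labelled set 1 was then 1 in place of 2, by the DESeq2 test and with the replicate block, and 1 to 2 with each library left out. The counts of genes called stayed within 1.5 times in all 321 cases. THBD in the Huh7 effect minus the set 2 effect ran from −3.71 to 0.82 with each library left out, and it reversed to 0.82 without replicate 3 of the Huh7 control, the only Huh7 library with THBD counts, against −3.16 with all libraries.

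Same-numbered replicates did not deviate together (r from −0.0112 to 0.0282 in IMR90 and −0.184 to −0.044 in Huh7), so the numbers were not taken as pairs; 5 of 9 IMR90 libraries and 0 of 6 Huh7 libraries correlated best with their own number. The replicate block changed no other call of a chemokine. Upper-quartile scaling moved the median of all genes to −0.13 between the libraries labelled set 1 and set 2, against −0.03. Depth limits THBD in Huh7 and the genes with under 1 CPM.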
